A study of Mus musculus with 9 samples.

Results

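The lysosome's proton pump, its membrane proteins, its hydrolases and the transcription factors tied to lysosomal genes were followed through RNA sequencing of dendritic cell subsets sorted from mouse spleen. A list of 39 genes was taken by name, with earlier results of these data known. Of these, 38 had a row among the 14862 genes of the deposited table. Atp6v0c, which encodes the ring subunit of the pump, was not analysed here. All 38 passed the filter for testing, which asked for more than 1 RPKM (reads normalized to gene length and library size) in at least 2 libraries and was met by 11971 genes.

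The groups were cDC1, cDC2 and a subset labelled mcDC, each with 3 libraries of total RNA from C57Bl/6 spleen at 8 to 12 weeks of age. No treatment or genetic change is given for any group, and how the subsets were gated is not given in the sources used here. Separate animals are not named in the labels, and the p-values therefore speak of library-to-library spread that could be technical. Depth, recovered from the values in M reads, ran from 9.68 to 11.01 for the cDC1 libraries, from 9.19 to 12.43 for cDC2 and from 5.14 to 8.22 for mcDC. Replicates 1, 2 and 3 follow runs of consecutive library titles.

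The labels were checked against marker lists. The summed level of 7 cDC1 markers, among them Xcr1 and Clec9a, was 1514 to 1872 RPKM in cDC1, 81.0 to 133 in cDC2 and 291 to 631 in mcDC. Most of the mcDC sum was Irf8, at 206, 404 and 493 RPKM by library. Xcr1 was at 10.3 to 19.4 RPKM in mcDC and 131 to 174 in cDC1. For 7 cDC2 markers the sum was 48.8 to 178 in cDC1, 854 to 929 in cDC2 and 360 to 588 in mcDC. The 11 red pulp macrophage markers summed to 119 to 166, 196 to 235 and 436 to 820 RPKM in the same order, with none at 0. They did not move as 1 between cDC1 and cDC2, where 1 was called higher in cDC1 and 1 lower. Adgre1 averaged 4.34, 91.2 and 51.8 RPKM in cDC1, cDC2 and mcDC, and Vcam1 25.4, 7.66 and 61.3. The 8 monocyte markers summed to more in cDC2, at 1518 to 2272 RPKM against 324 to 502 in cDC1 and 662.5 to 859 in mcDC. Lyz2 was the largest part of the cDC2 sum, at 698, 1176 and 1462 RPKM by library. Against cDC2, 6 of the 8 were called lower in cDC1 and 1, Treml4, higher, at 102 against 61.7 RPKM by mean. Ly6c2 was not called. Neutrophil markers summed to 149 to 1527 RPKM in cDC2, 14.8 to 45.8 in cDC1 and 16.3 to 45.8 in mcDC. Of 6 plasmacytoid dendritic cell markers 3 (Siglech, Ccr9 and Pacsin1) were called higher in cDC1 than in cDC2. The list summed to 93.8 to 156 RPKM in cDC1, 59.3 to 94.9 in cDC2 and 104 to 204 in mcDC. Most of the mcDC sum was Bst2, at 76.5, 102 and 169 RPKM by library. Siglech, Ccr9 and Pacsin1 averaged 8.71, 9.98 and 2.78 RPKM in cDC1 and less in mcDC, at 4.03, 2.21 and 0.661. Bst2, Tcf4 and Ly6d averaged more in mcDC than in cDC1. The part of these cells in the results was not tested. In bulk RNA, fewer cells of a type and less RNA per cell cannot be told apart.

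As background, the V-ATPase pumps protons into endosomes and lysosomes. Its V1 sector hydrolyses ATP in the cytosol and its V0 sector carries protons across the membrane, and the acid lumen lets hydrolases cut glycans, lipids and proteins. TFEB and TFE3 are transcription factors that bind E-box sequences near lysosomal genes. In dendritic cells, the acidity and enzyme content of endosomes bear on how much antigen survives for presentation.

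Member transcripts spanned a wide range. Psap, the precursor of the saposins that present lipids to hydrolases, was the most abundant in every library, at 1120 to 4323 RPKM, and Mitf the least abundant member by mean, at 0.859 to 3.0002 RPKM. All members together took 2.01% to 2.53% of recovered reads in cDC1, 0.903% to 1.16% in cDC2 and 0.853% to 1.30% in mcDC. The pump's 14 members took 0.131% to 0.135%, 0.128% to 0.144% and 0.117% to 0.144%, ranges that overlapped. Psap by itself took 1.01% to 1.35%, 0.419% to 0.631% and 0.350% to 0.658%, and all 17 hydrolases and activators took 1.81% to 2.34%, 0.688% to 0.915% and 0.659% to 1.07%. In both, the cDC1 libraries were above all others, and cDC2 and mcDC overlapped.

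**Figure D1:**
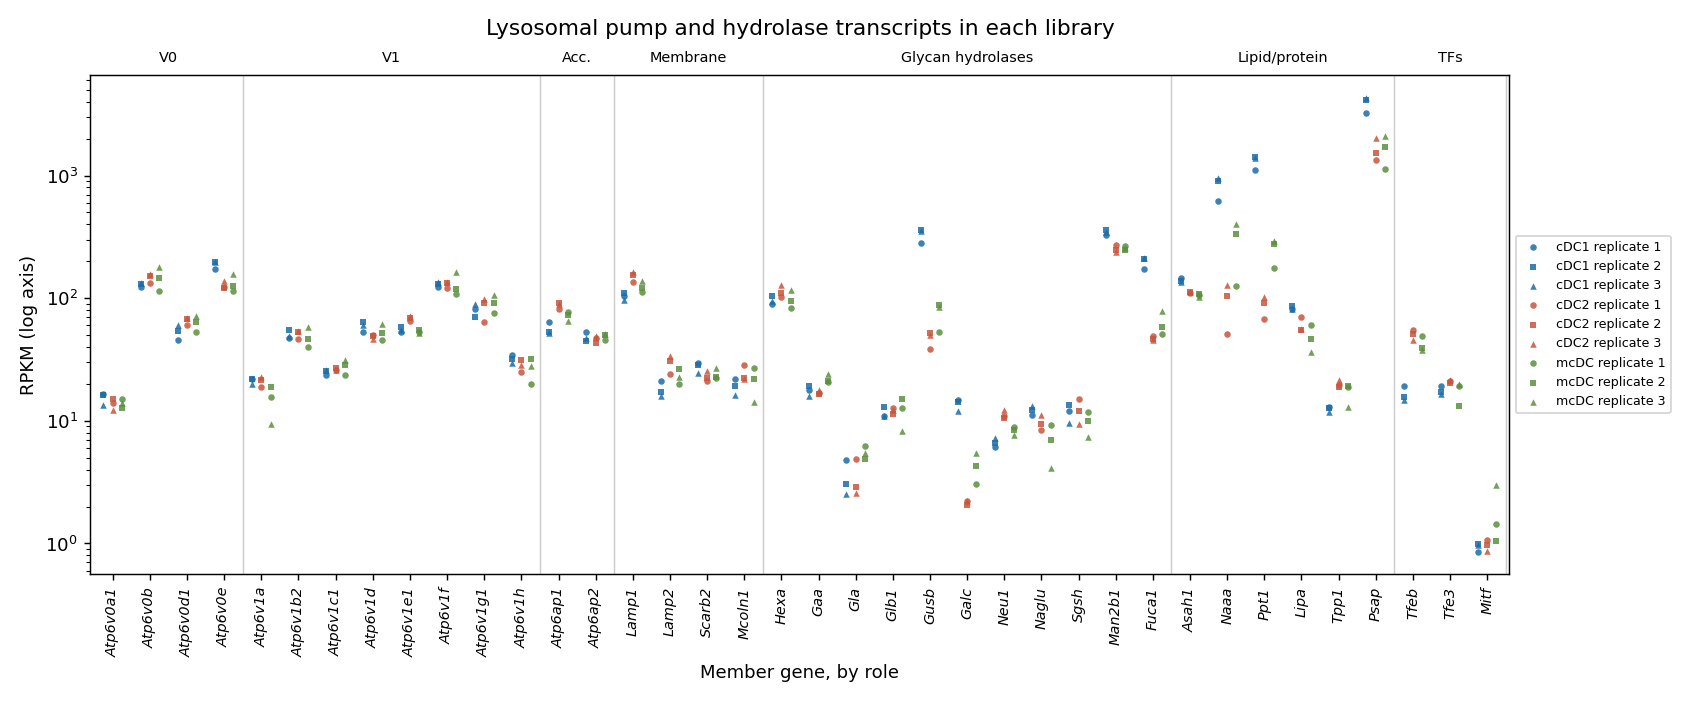
Level of each of the 38 members in each library, in RPKM on a log axis, grouped by role, with colour for the subset and marker shape for the replicate. Pump transcripts from the 3 subsets lie close together, while Ppt1, Naaa, Gusb, Galc, Fuca1 and Psap stand higher in cDC1.

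Promoter windows were examined because the listed transcription factors recognise a short sequence. RefSeq windows of assembly GRCm38.p6, from 250 bases before to 50 after each start, were found for 33 members, in 39 windows. The E-box core CACGTG, searched on both strands, was in 11 windows, 28.2% of those of members, against 9.94% of windows of tested genes and 7.15% of all windows in the table. There were 17 matches, and all 17 lay within the longer form TCACGTG, which 28.2% of member windows held, against 5.87% and 3.77%. Of the matches, 13 lay within 100 bases of the start.

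The windows below hold the 100 bases before the start, 5′ to 3′ on the strand of the gene, with CACGTG in capitals. They were chosen after the matches were seen, to set members with matches beside members that differed most between subsets. With matches are Lamp1 (chr8:13159061-13159160, plus strand), which has 4, and Mcoln1 (chr8:3500419-3500518, plus), a calcium channel of the lysosome, and Atp6v0b (chr4:117887330-117887429, minus), with 2 each. Naglu (chr11:101069994-101070093, plus) and Glb1 (chr9:114400978-114401077, plus) have 1 each. Without a match are Ppt1 (chr4:122836127-122836226, plus), Gusb (chr5:130003050-130003149, minus) and Naaa (chr5:92278182-92278281, minus).
Lamp1: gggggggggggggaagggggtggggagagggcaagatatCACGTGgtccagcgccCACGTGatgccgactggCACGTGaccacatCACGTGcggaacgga
Mcoln1: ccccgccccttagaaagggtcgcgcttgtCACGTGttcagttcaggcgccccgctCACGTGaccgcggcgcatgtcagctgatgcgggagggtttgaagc
Atp6v0b: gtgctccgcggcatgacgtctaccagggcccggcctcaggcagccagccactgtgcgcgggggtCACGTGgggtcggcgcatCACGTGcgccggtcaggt
Naglu: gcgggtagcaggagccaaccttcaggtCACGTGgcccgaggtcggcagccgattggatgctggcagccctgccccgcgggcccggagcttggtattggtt
Glb1: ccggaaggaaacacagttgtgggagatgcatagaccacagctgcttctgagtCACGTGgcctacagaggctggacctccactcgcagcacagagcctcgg
Ppt1: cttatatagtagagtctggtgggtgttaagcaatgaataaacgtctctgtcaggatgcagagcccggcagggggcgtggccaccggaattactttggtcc
Gusb: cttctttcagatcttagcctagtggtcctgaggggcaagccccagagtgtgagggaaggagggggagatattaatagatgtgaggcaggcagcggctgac
Naaa: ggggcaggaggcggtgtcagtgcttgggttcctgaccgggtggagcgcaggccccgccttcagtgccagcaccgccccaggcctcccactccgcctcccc

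The holders of a match were Atp6v0b, Atp6v0d1, Atp6v0e and Atp6v1a of the pump, the membrane proteins Lamp1 and Mcoln1, and the hydrolases Gaa, Gla, Glb1, Naglu and Sgsh. In all, 6 motifs were searched. The palindrome TCACGTGA was in 12.8% of member windows against 1.84% of windows of tested genes, GTCACGTG in 20.5% against 4.10%, and TCATGTGA in 7.69% against 0.805%. The palindrome TCACGTGA with a further G before and C after was in 0 of 39 member windows and in 0.728% of windows of tested genes. The forms that hold CACGTG overlap one another, and TCATGTGA is a separate form. A match is a description and not a site of binding, and no match says only that these letters are not in the window.

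**Figure D2:**
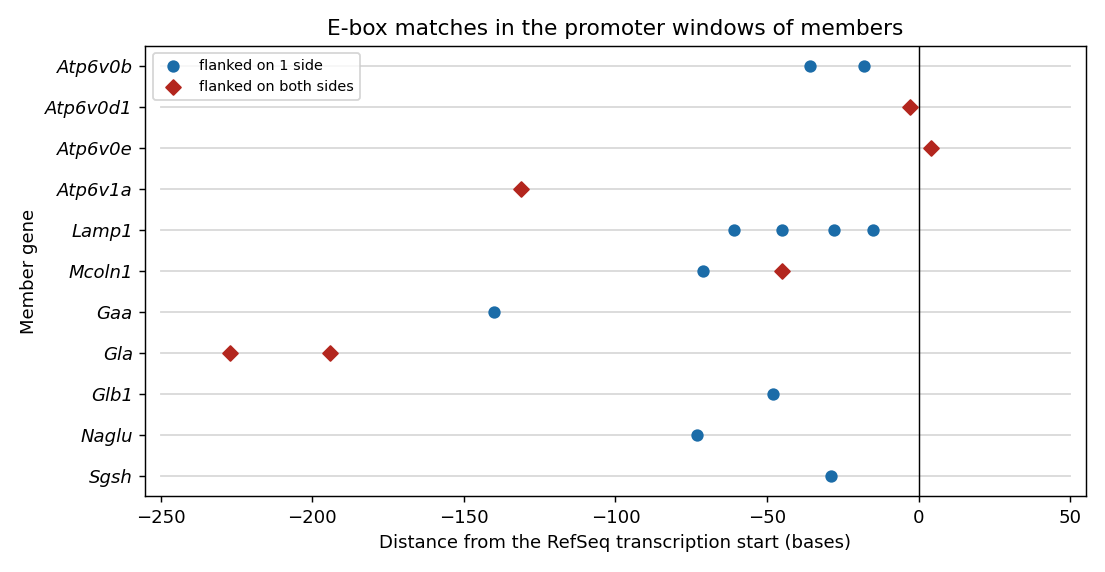
Position of each CACGTG match, in bases from the RefSeq start, for the 11 members with a match; diamonds mark matches flanked on both sides as TCACGTGA and circles those flanked on 1 side. The 4 matches of Lamp1 lie between -61 and -15, and 13 of the 17 matches are within 100 bases of the start.

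In cDC1 against cDC2, hydrolases of lipids and glycans carried the largest differences. Ppt1, which removes palmitate from proteins, was 15.0-fold higher in cDC1 by mean RPKM. The ratio was 8.78 for Naaa, an acid amidase of N-acylethanolamines, 7.05 for the beta-glucuronidase Gusb, 6.33 for the galactosylceramidase Galc, 4.2 for the fucosidase Fuca1 and 2.38 for Psap. Tfeb went the other way and was 3.05-fold lower in cDC1. These 6 and Tfeb were the members called at a fold of at least 2, where 4.86% of all tested genes were called so and higher, and 6.22% so and lower. Of the 38 members 16 were called at an adjusted p below 0.05, 9 higher and 7 lower in cDC1, where 19.6% of all tested genes were called, 8.85% higher and 10.7% lower. The median log2 difference over the members was 0.00, against -0.02 over all genes tested.

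Ppt1 stood at 1118, 1407 and 1391 RPKM in cDC1 replicates 1 to 3, at 67.6, 91.6 and 102 in cDC2, and at 176, 275 and 292 in mcDC. The groups did not overlap, with mcDC between the others. The log2 difference of cDC1 from cDC2 was 3.90 ± 0.22 (SE, adjusted p = 5.1e-06, limma). In GENCODE M21, exons of 9 members overlap another gene. Among them are Ppt1 with Cap1 (129 bases), Galc with Gm47439 (325 bases) and Lamp1 with Grtp1 (177 bases), all on the opposite strand, and whether reads were counted by strand was not given in the sources used here.

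Naaa was at 624, 906 and 963 RPKM in cDC1, against 51.5, 104 and 128 in cDC2 and 125, 334 and 405 in mcDC. No cDC2 or mcDC library reached the lowest cDC1 library, while mcDC replicate 1 lay within the cDC2 range. The difference of cDC1 from cDC2 was 3.19 ± 0.46 (adjusted p = 0.00089). Naaa had the widest error of the called members, and replicate 1 was its lowest library in every subset.

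Gusb gave 283, 358 and 354 RPKM in cDC1, against 38.5, 52.3 and 50.1 in cDC2 and 53.3, 87.6 and 85.4 in mcDC. Every cDC1 library was above every other library, and the log2 difference from cDC2 was 2.80 ± 0.21 (adjusted p = 2.1e-05). Galc, which cleaves galactosylceramide, had 14.8, 14.3 and 12.0 RPKM in cDC1, against 2.22, 2.06 and 2.21 in cDC2 and 3.08, 4.32 and 5.43 in mcDC. The 3 groups of Galc did not overlap, and cDC1 was higher than cDC2 by 2.21 ± 0.19 (adjusted p = 4.8e-05).

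Fuca1, which removes fucose from glycans, was at 173, 210.1 and 212 RPKM in cDC1, against 49.6, 46.3 and 45.8 in cDC2 and 51.5, 58.5 and 77.9 in mcDC. The 3 groups of Fuca1 did not overlap either, although the lowest mcDC library was close to the highest of cDC2. Its log2 difference of cDC1 from cDC2 was 2.04 ± 0.16 (adjusted p = 2.5e-05). Psap stood at 3218, 4127 and 4323 RPKM in cDC1, against 1340.0, 1540.2 and 2017 in cDC2 and 1120, 1708 and 2102 in mcDC. The cDC1 libraries were all above the rest, by 1.26 ± 0.27 over cDC2 (adjusted p = 0.0095), and cDC2 and mcDC overlapped.

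The other hydrolases called higher in cDC1 moved less. These were the mannosidase Man2b1, with a log2 difference of 0.45 ± 0.11, and the acid ceramidase Asah1, with 0.31 ± 0.09. Man2b1 was abundant, at 345 ± 17 RPKM (SD, n = 3) in cDC1 and 253 ± 18.3 in cDC2. Called lower were the sialidase Neu1, at 6.65 ± 0.586 against 11.3 ± 0.837 RPKM, and the peptidase Tpp1, at 12.5 ± 0.667 against 19.9 ± 1.30. In all, 8 of 17 hydrolases and activators were called higher, 2 lower and 7 in neither direction, among them Hexa, the most abundant of the 7, at 96.0 ± 7.05 and 113 ± 13.1 RPKM.

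Tfeb was at 19.3, 15.7 and 14.7 RPKM in cDC1, against 54.5, 50.8 and 46.0 in cDC2 and 48.9, 39.3 and 38.0 in mcDC. All cDC1 libraries lay below all others, and cDC1 was lower than cDC2 by a log2 difference of -1.56 ± 0.14 (adjusted p = 7.2e-05). Tfe3, its close relative, had 19.4, 17.0 and 16.7 RPKM in cDC1, against 21.2, 20.2 and 21.3 in cDC2 and 19.2, 13.3 and 19.98 in mcDC. Tfe3 did not pass the test in any comparison, with a 95% interval of -0.59 to 0.12 for cDC1 minus cDC2. Mitf was below 1.1 RPKM in all cDC1 and cDC2 libraries and at 1.45, 1.04 and 3.0002 in mcDC, from 30 to 80 reads per library, and passed no test.

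Within the family, counting Tfec, which is no member, Tfeb made up 46.4% ± 1.38 (SD, n = 3) of summed RPKM in cDC1, 68.3% ± 2.41 in cDC2 and 66.0% ± 5.96 in mcDC. Tfe3 made up 49.8% ± 1.55, 28.4% ± 1.73 and 27.3% ± 3.71. The 6 members at least 2-fold higher in cDC1 had no CACGTG match in their windows, as was so for 22 of the 33 members with a window. Among tested genes with a window, 11.7% held a match. The lack of a match in these 6 was seen after the values were known and was not tested.

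Of the pump's 14 members 1 was called higher in cDC1, 2 lower and 11 in neither direction, a share of calls near the 19.6% of all tested genes. The differences were small, and the 95% intervals of all 14 lay within -0.89 to 0.87. With the title run as a replicate block Atp6v0d1, of the V0 stalk, was called lower as well (-0.31, adjusted p = 0.0344), and Lipa higher (0.46, adjusted p = 0.0434). Atp6v0e, a small V0 subunit, had 172, 198 and 196 RPKM in cDC1, against 122, 122 and 137 in cDC2 and 115, 125 and 158 in mcDC. Its cDC1 libraries were above all others, by 0.57 ± 0.14 over cDC2 (adjusted p = 0.016). Atp6ap1, an accessory protein of assembly, had 64.5, 53.4 and 51.9 RPKM in cDC1, against 81.8, 90.8 and 89.8 in cDC2 and 76.5, 73.3 and 64.8 in mcDC. Here cDC1 was lowest, by -0.62 ± 0.12 against cDC2 (adjusted p = 0.0051). Atp6v1e1, of the V1 stalk, was called lower in cDC1 by -0.31 ± 0.10 (adjusted p = 0.049) and lost that call in 12 of 20 alternative settings.

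By level per length, Atp6v1f was the highest of the V1 members in each subset, at 129.6, 129.7 and 130.3 RPKM in cDC1, cDC2 and mcDC. Atp6v1a, the catalytic subunit, was the lowest, at 21.3, 21.1 and 14.7. In V0, Atp6v0a1 was the lowest at 15.4, 13.7 and 13.9 RPKM, and the highest was Atp6v0e in cDC1 but Atp6v0b, at 148 and 147, in cDC2 and mcDC.

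Subunit a has further isoforms that are no members, and they divided differently. Tcirg1 made up 59.7% ± 1.38 of the summed RPKM of Tcirg1, Atp6v0a1 and Atp6v0a2 in cDC1, 77.0% ± 1.44 in cDC2 and 70.8% ± 4.23 in mcDC. Atp6v0a2 made up 31.6% ± 0.154, 14.8% ± 1.33 and 20% ± 4.15, and its level was higher in cDC1 than in cDC2 by 1.15 ± 0.14 (adjusted p = 0.00036). The member isoform, Atp6v0a1, held 8.73% ± 1.25, 8.20% ± 1.01 and 9.13% ± 0.0793. By level, Tcirg1 averaged 106 RPKM in cDC1 and 129 in cDC2 and did not pass the test (-0.29 ± 0.13, adjusted p = 0.17).

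**Figure D3:**
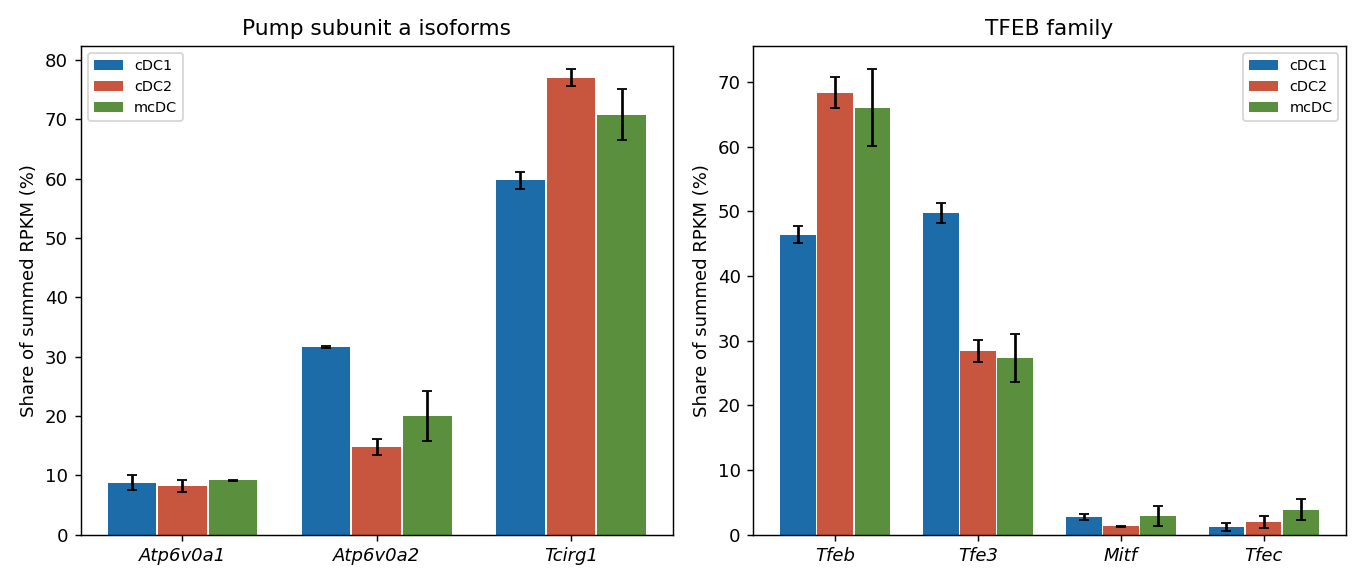
Share of summed RPKM held by each isoform of pump subunit a (left) and each TFEB family gene (right), as mean with SD over 3 libraries per subset. Atp6v0a2 and Tfe3 take larger shares in cDC1, at 31.6% and 49.8%, than in cDC2, at 14.8% and 28.4%.

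Membrane proteins were lower in cDC1 where they were called, in 2 of 4. Lamp1, a heavily glycosylated protein of the lysosomal membrane, had 104, 110.2 and 96.2 RPKM in cDC1, against 137, 154 and 162 in cDC2 and 112, 120.1 and 137 in mcDC. The cDC1 libraries were below all others, by -0.54 ± 0.12 against cDC2 (adjusted p = 0.011). Lamp2, needed for fusion and chaperone-mediated autophagy, had 21.0, 17.1 and 16.0, then 24.1, 30.9 and 33.7, then 20.05, 26.6 and 22.6 RPKM. The cDC1 and cDC2 libraries of Lamp2 did not overlap and differed by -0.68 ± 0.17 (adjusted p = 0.018). Scarb2, the receptor that carries glucocerebrosidase, and Mcoln1 did not pass the test. With the replicate block and mcDC replicate 3 left out, Mcoln1 was called lower in cDC1 (-0.32, adjusted p = 0.0212) and Atp6v1d of the pump higher (0.27, adjusted p = 0.0469).

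Across roles, 22 of 38 members had cDC1 and cDC2 libraries that did not overlap, where 46.1% of all tested genes did. Of the 16 calls 8 held in all 20 alternative settings, those of Ppt1, Naaa, Gusb, Galc, Fuca1, Psap, Atp6ap1 and Tfeb. The count fell to 10 without cDC1 replicate 2 or cDC2 replicate 3 and to 9 without cDC1 replicate 3 or cDC2 replicate 2. The calls lost in at least 1 setting, with their highest adjusted p, were Lamp1 (0.0543), Neu1 (0.0645), Atp6v0e (0.0742), Lamp2 (0.0806), Man2b1 (0.0864), Tpp1 (0.098), Asah1 (0.172) and Atp6v1e1 (0.172).

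**Figure D4:**
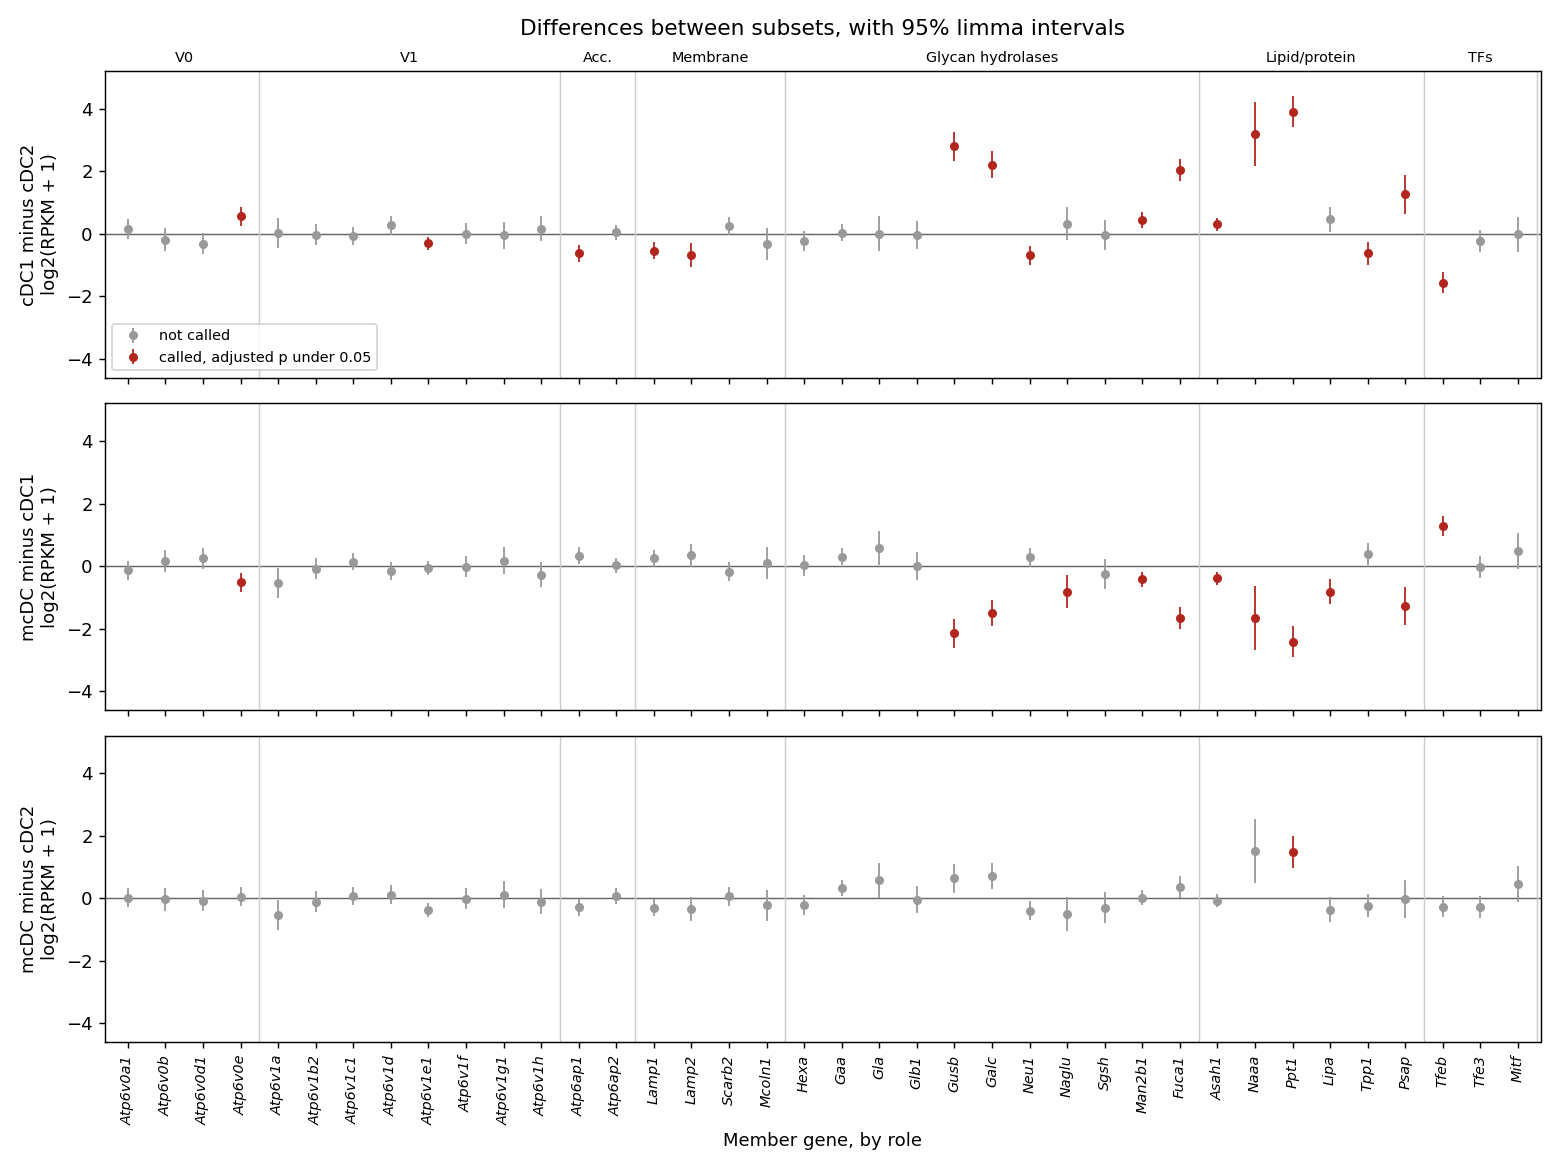
Log2 difference of RPKM + 1 for each member in each comparison, with 95% intervals from limma, and called members in red. The largest values in the top panel are Ppt1 at 3.90 and Naaa at 3.19, and the pump's intervals stay within -0.89 to 0.87 in that panel.

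In mcDC against cDC1, the same libraries of cDC1 served as in the comparison above, so the results are not independent. Of the 17 hydrolases and activators 10 were called lower in mcDC and 7 in neither direction, and Tfeb was the 1 member called higher. Of the 7, Gla (0.58), Gaa (0.30) and Neu1 (0.29) had mcDC libraries that all lay above those of cDC1, without passing the test. There were 12 calls, 1 higher and 11 lower, where 15.4% of all tested genes were called, 9.53% higher and 5.88% lower. The log2 difference was -2.42 ± 0.22 for Ppt1 (adjusted p = 0.00015), -2.15 ± 0.21 for Gusb (adjusted p = 0.00019), -1.66 ± 0.16 for Fuca1 (adjusted p = 0.00017) and -1.50 ± 0.19 for Galc (adjusted p = 0.00081). Tfeb was higher by 1.29 ± 0.14 (adjusted p = 0.00038). These 5 calls held in all 20 alternative settings.

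Psap was lower in mcDC by -1.28 ± 0.27 (adjusted p = 0.012), a call lost without cDC1 replicate 2 (adjusted p = 0.059) or cDC1 replicate 3 (0.0543). Naaa was lower by -1.67 ± 0.46 (adjusted p = 0.036), a call lost in 7 of 20 settings, with adjusted p up to 0.121. Lipa, the acid lipase that frees cholesterol from its esters, had 81.3, 87.1 and 81.7 RPKM in cDC1 and 60.1, 46.4 and 36.7 in mcDC. Its libraries did not overlap, and the difference was -0.82 ± 0.17 (adjusted p = 0.012, and 0.0579 without cDC1 replicate 2).

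The remaining calls were of smaller size or less settled. Naglu, a step of heparan sulfate breakdown, had 11.2, 12.2 and 13.2 RPKM in cDC1 and 9.26, 6.96 and 4.16 in mcDC, a difference of -0.82 ± 0.24 (adjusted p = 0.045). It lost the call in 12 of 20 settings, among them the fit with the title run as a replicate block (adjusted p = 0.0523). Atp6v0e differed by -0.51 ± 0.14, Man2b1 by -0.43 ± 0.11 and Asah1 by -0.39 ± 0.09, and these lost the call in 9, 5 and 5 settings. Of the pump's 14 members Atp6v0e was the 1 called. Atp6v1a, at -0.55 ± 0.21 (adjusted p = 0.12), was called lower by voom (-0.71, adjusted p = 0.0406) and without mcDC replicate 2 (0.0435). Without mcDC replicate 3, Atp6ap1 (0.0384) and Tpp1 (0.00626) were called higher in mcDC, and with the block as well so was Neu1 (0.0477). Of the 4 membrane proteins limma called 0, with 0 at an unadjusted p below 0.05 and 0 by voom. Without 1 library the count of calls ran from 5 to 14, with 5 without cDC1 replicate 2 and 6 without cDC1 replicate 3.

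The red pulp macrophage markers moved with this comparison, with 10 of 11 called higher in mcDC. The cDC1 markers did as well, with 6 of 7 called lower in mcDC. Further, 5 of 7 cDC2 markers, 4 of 8 monocyte markers and 2 of 5 NK cell markers were called higher in mcDC, and 1 monocyte marker and 2 of 6 plasmacytoid dendritic cell markers lower. Their part in the result was not tested. Libraries did not overlap for 19 members, where this was so for 30.5% of all tested genes.

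In mcDC against cDC2, 1 member was called in the fit without the title run, and 4 with the title run as a replicate block. Ppt1 was higher in mcDC by 1.48 ± 0.22 (adjusted p = 0.0076), which is 2.84-fold by mean RPKM, and the call held in all 20 settings. For comparison, 3.66% of all tested genes were called, 2.06% higher and 1.60% lower. Of the 17 hydrolases and activators 16 were not called, and limma called 0 of the pump's 14 members, with 3 at an unadjusted p below 0.05 (Atp6v1a, Atp6v1e1 and Atp6ap1, all lower in mcDC) and 1 by voom. The pump's intervals lay within -1.02 to 0.54. Libraries did not overlap for 11 of the 38 members, where this was so for 21.6% of all tested genes.

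Naaa, with a ratio of 3.04, a difference of 1.53 ± 0.46 and an adjusted p of 0.11, was not called, and neither was Gusb at 0.65 ± 0.21 (adjusted p = 0.14). With the title run as a replicate block the count was 4 rather than 1, with Naaa (adjusted p = 0.00373) and Gusb (0.00934) higher and Atp6v1e1 (0.0423) lower. Without mcDC replicate 1 the count was also 4, with Naaa at 0.013, Gusb at 0.017 and Galc at 0.0219. In mcDC replicate 1 the level of Ppt1, Naaa, Gusb and Galc was the lowest of the 3 mcDC libraries.

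The summed cDC1 markers, at 291 to 631 RPKM in mcDC against 81.0 to 133 in cDC2, moved with Ppt1, and 6 of 7 of them were called higher in mcDC. So did the red pulp macrophage markers, with 8 of 11 called higher, although Adgre1 was lower in every mcDC library than in cDC2. In both lists no defining marker was at 0 in any library. Of the other lists, 2 of 5 NK cell and 1 of 4 tested B cell markers were called higher in mcDC. Called lower were 6 of 9 neutrophil, 3 of 8 monocyte and 2 of 7 cDC2 markers. The part of all these cells in the Ppt1 result was not tested. Placed between the cDC2 and cDC1 means on the log2 scale, mcDC lay 47.8% of the way for Naaa, 38.0% for Ppt1, 32.3% for Galc, 23.2% for Gusb, 18.5% for Fuca1, 16.9% for Tfeb and -1.33% for Psap.

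**Figure D5:**
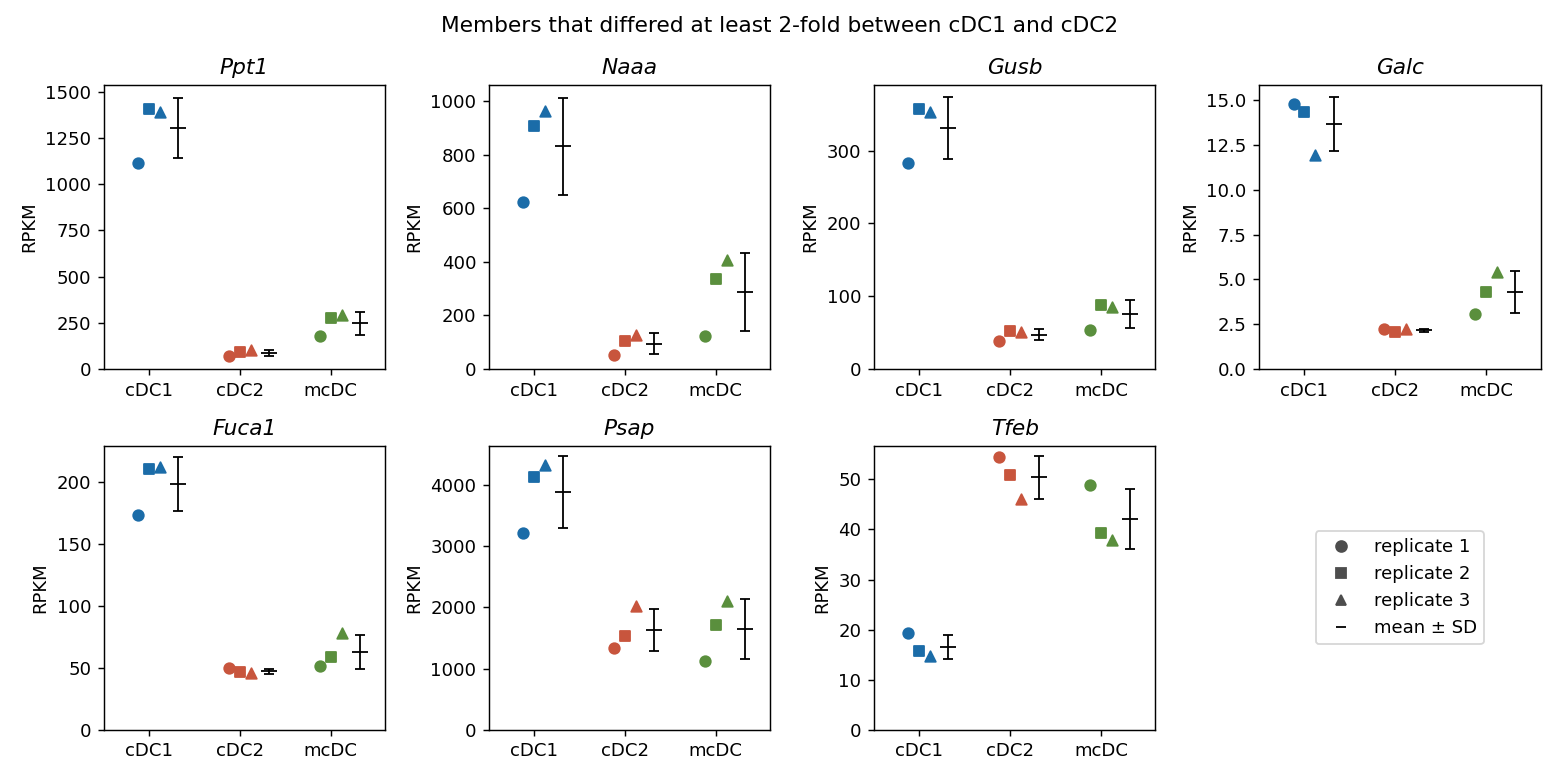
RPKM in each library for the 7 members that differed at least 2-fold between cDC1 and cDC2, with mean and SD over 3 libraries. The mcDC libraries lie near cDC2 for Psap, Fuca1 and Tfeb and between the others for Ppt1, with 176 to 292 RPKM.

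By mean level, 11 members ran in the order cDC1, mcDC, cDC2 and 10 in the order cDC2, mcDC, cDC1. The other orders held 3 to 5 members each. For 37 of 38 members mcDC and cDC2 were not called apart in the fit without the title run, which did not settle their order. With the title run as a replicate block 4 members were called. The mcDC libraries all lay above those of cDC2 for 6 members and all below for 5. Libraries did not overlap in this comparison for 21.6% of all tested genes. Replicate 1 was the lowest library in all 3 subsets for 9 of 38 members, or 23.7%, against 12.0% of all tested genes.

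Other lysosomal genes, taken from lists that hold no member, gave a mixed picture. In cDC1 against cDC2, 5 of 27 further soluble hydrolases and activators were called higher and 8 lower, 4 of 21 membrane proteins higher and 4 lower, and 2 of 10 pump isoforms and assembly factors higher, where 8.85% of all tested genes were called higher and 10.7% lower. Laptm4b, a late endosomal membrane protein, was at 47.0 ± 8.33 RPKM in cDC1 against 1.10 ± 0.357 in cDC2, a difference of 4.52 ± 0.30 (adjusted p = 1.2e-05). The acid phosphatase Acp5 went the other way, at 16.7 ± 2.33 against 84.1 ± 2.47 RPKM (-2.27 ± 0.12, adjusted p = 3.0e-06).

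Among genes that sort enzymes to the lysosome, 1 of 10 was called higher in cDC1 and 2 lower, where 8.85% and 10.7% of all tested genes were. The 1 was Igf2r, the larger mannose 6-phosphate receptor, at 10.7 ± 2.69 RPKM against 0.593 ± 0.211. Among 21 genes that control TFEB, limma called 2 higher and 0 lower, with 3 lower at an unadjusted p below 0.05 and 1 lower by voom. Fnip2, a partner of folliculin, averaged 33.3 ± 5.12 RPKM in cDC1 and 2.79 ± 0.283 in cDC2 (3.17 ± 0.18, adjusted p = 5.2e-06).

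In mcDC against cDC1, 7 of 27 of these soluble hydrolases were called higher and 5 lower, where 9.53% and 5.88% of all tested genes were. In mcDC against cDC2, 3 of 89 genes over the 5 lists were called, a share near the 3.66% of all tested genes. All 3 were higher in mcDC: Pla2g15, Arsb and Laptm4b. Pla2g15, a lysosomal phospholipase, was at 13.6 ± 3.16 RPKM in mcDC, 3.11 ± 0.108 in cDC1 and 6.65 ± 0.603 in cDC2. It was the 1 lysosomal gene of either list called higher in mcDC against each of the others, where 0.902% of all tested genes were. Against cDC2 that call was lost in 6 of 20 settings, that of Laptm4b in 10 and that of Arsb in 15.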

How the data were processed

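RNA from sorted spleen subsets, 3 libraries of each of 3, was prepared with a directional kit, per the labels' protocols. The authors deposited RPKM values in 1 table and in 8 single-library files, which held the same values as their columns. The unit is not named and was read from the value steps. The submitters' processing notes name build mm8. Aligner, counter and use of strand: not given in the sources used here. The table held 0 columns from other samples. From the steps, 100% of nonzero values came out as whole reads (tolerance 0.001), with 1 read per kb equal to 0.080 to 0.194 RPKM.

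The test was limma (3.58.1, under R 4.3.3), applied to log2(RPKM + 1) of all 9 libraries together with a variance trend, and p-values were adjusted by Benjamini and Hochberg over the 11971 genes tested. Fold changes on this scale understate those of low genes, and mean ± SD are of RPKM. Simulated data had the same assumed spread for all genes and subsets and no effect of the title run. There the share of false calls was above the nominal level in both mcDC comparisons and below it in cDC1 against cDC2. Adjusted p-values near the threshold are therefore less firm for mcDC. The simulation cannot give the share of false calls in the real libraries, whose spread and runs it did not copy. Intervals are 95%.

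The members, gene lists and tests were chosen with earlier results of these data known. Values by library are given for called members whose groups do not overlap, up to 10 per comparison, and for Tfeb, Tfe3, Mitf, Lamp1, Lamp2 and Psap; other members are given by role, with up to 4 of highest mean RPKM named, and other lysosomal lists by their largest called changes. Further names, motifs and promoters were chosen after values were seen. Promoters are from RefSeq (GRCm38.p6). Alternatives were other scalings, pseudocount, filters, fits of the 2 groups alone, no variance trend, voom on recovered reads, the title run as replicate block, and leaving out libraries. Leaving out run 1 of all subsets was added after seeing the data.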

Additional observations from a re-analysis of the deposited data

How the results depend on the processing

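Over 20 alternative settings no called member changed direction. Beside the 16 calls for cDC1 against cDC2, leaving out 1 library gave 9 to 17. For mcDC against cDC1, beside 12, the 2 groups fitted alone gave 7 and leaving out 1 library 5 to 14. For mcDC against cDC2, beside 1, median-of-ratios scaling and voom gave 2, leaving out 1 library 1 to 4, the block with mcDC replicate 3 left out 3, and leaving out run 1 of all subsets 3. The cause was not tested. The replicate block gave 18, 11 and 4 calls. The labels do not say whether title runs pair the libraries, and the main fit does not use the run. Deviations from group means were correlated between libraries of the same run under 4 gene filters that were all looked at, and the lowest correlation was 0.098 over all tested genes, 0.102 above a mean of 1 RPKM, 0.071 above 5 and 0.144 above 10, so 2 of 4 filters put every pair above 0.1. Over all tested genes, same-run pairs correlated at 0.098 to 0.458 and pairs of different runs at -0.448 to 0.031, ranges that did not overlap. Among libraries of the other subsets, each of 9 libraries correlated best with its own run. Uncalled values that changed sign were Mitf for cDC1 against cDC2 (-0.056 to 0.018 leaving out 1 library, above 0 at 0.013 without cDC1 replicate 1 and 0.018 without cDC2 replicate 1, and 0.050 without run 1), Tfe3 for mcDC against cDC1 (-0.13 to 0.14, above 0 at 0.031 without cDC1 replicate 1 and 0.14 without mcDC replicate 2) and Psap for mcDC against cDC2 (-0.22 to 0.24, above 0 at 0.15 without cDC2 replicate 3 and 0.24 without mcDC replicate 1, and 0.10 without run 1). Median-of-ratios scaling moved the median of all genes for mcDC against cDC1 from 0.09 to -0.03, and the share of calls that were higher from 61.8% to 46.5%, while the members stayed at 1 higher and 11 lower. For mcDC against cDC2 that share went from 56.4% to 42.8%. Mitf has no value under the filter of 5 RPKM. The mcDC libraries have the fewest reads, and the test does not weight libraries by depth.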
